A study of Mus musculus with 6 samples.

Results

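The Lingo3 knockout line, made in immortalized mouse lung epithelial cells (MLE12), was set against the Lingo1, Lingo2 and TROY knockout lines taken as a group of 3. It is 1 library of the 6 in the series and was chosen by its label. All 4 monolayers were labelled as knockouts, had been wounded with a pipet tip and were collected 24 hours later, so neither parental library entered the comparison. RNA was sequenced from a messenger RNA preparation, with between 28109825 and 30776294 reads counted in genes per library. Each line had 1 library, and the 3 other lines differ in genotype, so no spread between cultures of a line was measured and line, genotype and culture cannot be told apart. Whether each line came from 1 cell was not given in the sources used here.

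LINGO proteins are membrane proteins with leucine-rich repeats and an immunoglobulin domain. LINGO1 is best known from neurons, where it joins the Nogo receptor and either the p75 neurotrophin receptor (Ngfr) or TROY (Tnfrsf19) in a complex that limits axon growth and myelination. An epithelial wound closes as cells at its edge spread and migrate over matrix that they lay down and remodel. Matrix proteins, the proteases that cut them and growth factor, Wnt and Notch receptors all take part in that process.

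The Lingo3 label could not be checked by transcript. Lingo3 had 0 counts in the Lingo3, Lingo1 and TROY lines and 1 count in the Lingo2 line, where a count of 0 allows up to 3 counts, or 0.0975 CPM in the Lingo3 line (CPM is counts per 1000000 scaled reads). Lingo2 had 0 counts in all 4 lines, and Tnfrsf19 had 4 counts in the Lingo3 line, against 4, 3 and 1 in the Lingo1, Lingo2 and TROY lines. Lingo1 stood at 50.8 CPM in the Lingo3 line, against 56.5, 50.9 and 34.3 CPM in the Lingo1, Lingo2 and TROY lines. The library labelled Lingo1 thus had the highest Lingo1 level of the 4, so transcript level did not bear out its label. An edited gene can still be transcribed, so this level cannot decide the label, and the protein was not measured. Each name of a line stands throughout for the library with that label, and directions against the Lingo1 line are directions against the library labelled Lingo1. The epithelial label held for the junction cadherin Cdh1, at 910 CPM in the Lingo3 line and between 864 and 983 CPM in the others. Mesenchymal genes were expressed as well, with 16 of 21 listed mesenchymal transition genes measured. Among them Vim was at 1292 CPM in the Lingo3 line and between 1273 and 1371 CPM in the others. Among alveolar type II cell markers Sftpb, Sftpc and Abca3 were measured, while Sftpd had 0 counts and Sftpa1 and Lamp3 at most 1 in any of the 4 libraries.

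In the Lingo3 line 126 genes were higher and 18 were lower than in every 1 of the other 3 lines. The matrix proteoglycan biglycan, the Wnt antagonist Sfrp1, the receptors Notch1, Notch3, Pdgfrb and Pdgfra and the collagen Col1a1 were among the higher genes. The basement membrane collagen Col4a6, tenascin C and a cluster of chymase genes were among the lower ones. A gene counted as higher or lower when the fold between 2 libraries was at least 2 and the bound of its 95% Clopper-Pearson interval nearest to 1 was beyond 1.5, in the same direction against Lingo1, Lingo2 and TROY. These intervals cover counting error only. The 144 genes were 1.2% of the 12045 tested (1.05% higher and 0.149% lower). Wherever a gene is called higher or lower below with no other test named, it passed this rule. With a filter of at least 5 CPM the rule gave 47 higher and 15 lower genes, and with no filter 190 higher and 22 lower, so the ratio of higher to lower genes depends on the filter. All 126 higher genes and 14 of the 18 lower genes are protein-coding. The same rule, turned to each of the other lines against its 3 companions, gave 0 genes for Lingo1, 0 for Lingo2, and 1 higher (0.0083%) and 14 lower (0.116%) for TROY.

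Against single lines, Lingo3 differed in 218 genes from Lingo1 (1.81%, 1.47% higher and 0.34% lower). From Lingo2 it differed in 207 genes (1.72%, 1.39% higher and 0.324% lower), and from TROY in 343 (2.85%, 2.4% higher and 0.448% lower). Lingo1 differed in 2 genes from Lingo2 (0.0166%) and in 28 from TROY (0.232%), and Lingo2 in 47 from TROY (0.39%). The Lingo3 level lay outside the range of the other 3 lines for 7391 genes (61.4%). Any library can be the highest or lowest of so few for many genes by chance alone. This share was not set against a chance share, nor against the same share for Lingo1, Lingo2 or TROY. It is therefore not a count of genes that set Lingo3 apart. Over the tested genes, the SD of the difference in log2(CPM + 1) was between 0.276 and 0.341 for Lingo3 with each other line, and between 0.164 and 0.229 among the other 3. edgeR's quasi-likelihood test of the Lingo3 library against the spread of the other 3, which assumes that the lone library varies as they do, gave 412 genes above and 135 below at a Benjamini-Hochberg adjusted p under 0.05 (3.42% and 1.12% of the genes tested, 4.54% in all). The genes past the size rule were chosen by their folds in these same libraries, so passing edgeR or DESeq2 is no separate support for them. All of them were among edgeR's genes, and most but not all passed DESeq2 at the same threshold. Among those that missed it with DESeq2 were Ltbp2 (adjusted p = 0.259), Pdgfrb (0.0636), Elf3 (0.0552) and the ribosomal RNA genes n-R5-8s1 (0.0662) and CT010467.1 (0.231). The edgeR counts moved with each line: both fell without Lingo1, and both rose without Lingo2 and without TROY. The p-values of edgeR compare 1 library with 3 lines of different genotype, not a genotype with replicates.

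**Figure D1:**
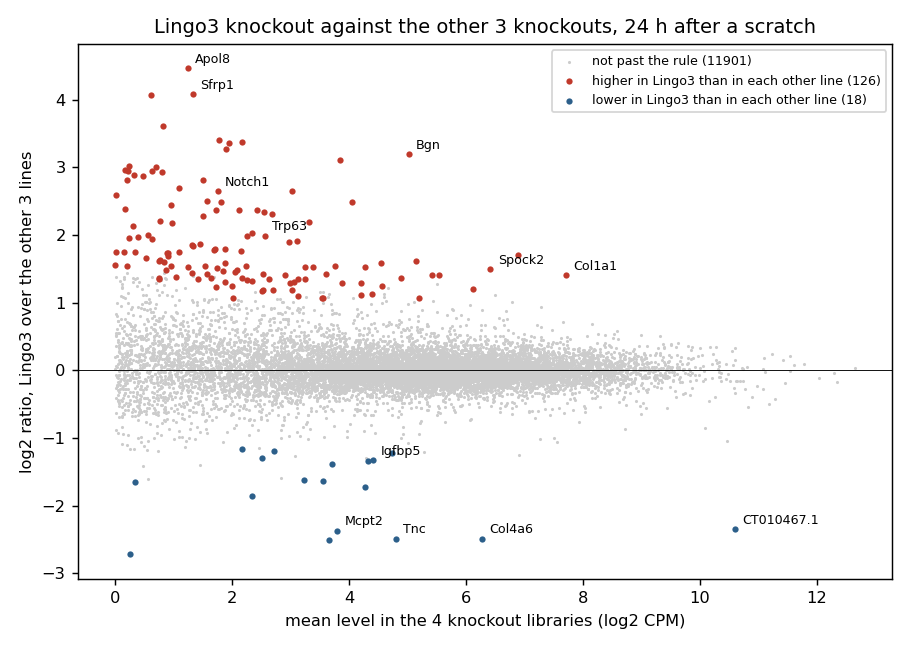
Log2 ratio of the Lingo3 library to the other 3 knockout libraries (y axis) against the mean level over the 4 libraries (x axis, log2 CPM), 1 point per tested gene. The 126 genes higher in Lingo3 than in each other line lie mostly at low levels, and the 18 lower ones include Col4a6, Tnc and the ribosomal RNA gene CT010467.1.

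Higher genes were mostly little expressed in the other lines. Their median level was 8.08 CPM in the Lingo3 line and 2.19 CPM as the mean of the other 3, and 92 of the 126 averaged under 5 CPM in the other 3. The expression filter used the mean over all 4 libraries, and 29 of the 126 averaged under 1 CPM in the other 3, so that they were tested only through the Lingo3 library. The 18 lower genes had a median of 4.13 CPM in the Lingo3 line and 15.7 CPM as the mean of the other 3. Folds given with no line named compare Lingo3 with the other 3 lines pooled, taken as their summed counts over their summed scaled library sizes. This ratio had a median of 3.20 over the higher genes, and 41 of them were at least 4-fold higher. Among the lower genes the median was 3.11-fold, and 6 were at least 4-fold lower.

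Apol8, of the apolipoprotein L family, led the higher genes. It stood at 8.35 CPM in the Lingo3 line, against 0.322, 0.520 and 0.295 CPM in the Lingo1, Lingo2 and TROY lines. That is 22.1-fold the pooled level of the 3 (15.3 to 32.8). Sfrp1, a secreted antagonist of Wnt ligands, stood at 8.55 CPM, against 0.751, 0.520 and 0.263 CPM, 17.0-fold (12.3 to 23.9). In both genes the Lingo3 library was more than 10-fold above the highest of the other 3 lines, which differed among themselves by less than 3-fold.

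Cacng4, a transmembrane subunit of calcium channels and AMPA receptors, had 160 counts in the Lingo3 line, against 13, 11 and 3 in the Lingo1, Lingo2 and TROY lines, 16.8-fold (11.1 to 26.3). Dapk1, a death-associated protein kinase, stood at 13.9 CPM, against 1.86, 1.66 and 0.558 CPM. Dysferlin, Dysf, a protein of membrane repair, was at 42.6 CPM, against 7.91, 4.88 and 2.26 CPM, 8.64-fold (7.74 to 9.65). Prex1, an exchange factor for the small GTPase Rac, was at 43.0 CPM, against 9.12, 7.55 and 6.50 CPM, 5.59-fold (5.09 to 6.14). Ces1d, a carboxylesterase in a cluster of similar copies, was 12.3-fold higher (8.66 to 17.8), Tlr7, an endosomal sensor of RNA, 7.07-fold (5.57 to 9.03) and Nova2, a splicing factor known from neurons, 7.43-fold (5.16 to 10.9). These genes were picked by their folds in the same libraries that edgeR compares, so edgeR's p-values are no separate support for them.

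**Figure D2:**
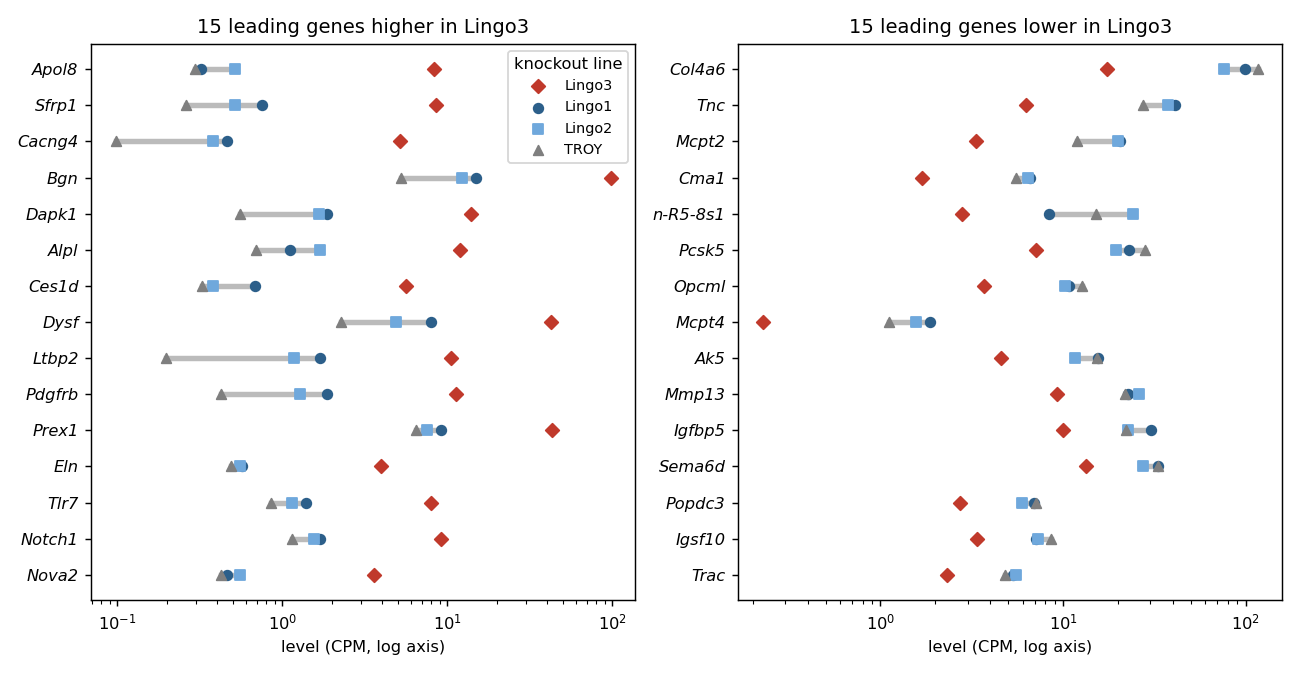
Levels (CPM, log axis) of the 15 leading genes higher (left) and lower (right) in Lingo3, with 1 marker per library and a grey bar over the range of the Lingo1, Lingo2 and TROY lines. The Lingo3 marker lies outside that range for all 30 genes, as the rule requires, and TROY is the lowest of the other 3 in most of the higher genes.

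Promoter sequences were looked up to show the DNA at the start of the leading genes. RefSeq windows of 300 bases (250 before and 50 after the start, build GRCm38.p6) were matched by symbol for 81 of the 126 higher and 11 of the 18 lower genes, with the first listed start used. Of the 4 leading higher and 2 leading lower genes, 4 matched and are printed 5′ to 3′, with capitals for any match to 5 motifs on either strand. The motif searched for AP-1, the dimer of Fos and Jun proteins, was TGANTCA. For TEAD, the partners of YAP, it was GGAATG. For RBPJ, the DNA-binding partner of cleaved Notch, it was TGGGAA. For the TATA box of core promoters it was TATAAA, and for the factor Sp1, which binds GC-rich DNA, it was GGGCGG. The windows lie at chr15:77756961-77757260 (minus strand) for Apol8, chrX:73483351-73483650 (plus) for Bgn, chrX:141474027-141474326 (minus) for Col4a6 and chr4:64046966-64047265 (minus) for Tnc.
Apol8: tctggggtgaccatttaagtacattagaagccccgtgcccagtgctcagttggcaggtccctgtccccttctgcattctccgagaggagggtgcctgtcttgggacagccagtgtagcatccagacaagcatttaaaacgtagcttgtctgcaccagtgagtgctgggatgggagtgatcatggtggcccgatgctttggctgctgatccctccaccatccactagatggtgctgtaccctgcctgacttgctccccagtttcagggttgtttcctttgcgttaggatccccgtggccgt
Bgn: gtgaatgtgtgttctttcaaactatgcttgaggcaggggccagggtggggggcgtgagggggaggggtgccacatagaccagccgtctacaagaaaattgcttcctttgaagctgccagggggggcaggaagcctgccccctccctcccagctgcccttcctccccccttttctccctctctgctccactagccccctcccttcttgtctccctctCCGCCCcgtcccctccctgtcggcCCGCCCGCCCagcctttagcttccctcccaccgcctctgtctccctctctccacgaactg
Col4a6: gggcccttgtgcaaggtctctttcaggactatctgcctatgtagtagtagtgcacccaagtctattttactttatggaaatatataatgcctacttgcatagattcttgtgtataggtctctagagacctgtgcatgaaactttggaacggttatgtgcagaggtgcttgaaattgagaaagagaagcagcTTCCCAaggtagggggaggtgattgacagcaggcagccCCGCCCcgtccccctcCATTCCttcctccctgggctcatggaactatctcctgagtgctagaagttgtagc
Tnc: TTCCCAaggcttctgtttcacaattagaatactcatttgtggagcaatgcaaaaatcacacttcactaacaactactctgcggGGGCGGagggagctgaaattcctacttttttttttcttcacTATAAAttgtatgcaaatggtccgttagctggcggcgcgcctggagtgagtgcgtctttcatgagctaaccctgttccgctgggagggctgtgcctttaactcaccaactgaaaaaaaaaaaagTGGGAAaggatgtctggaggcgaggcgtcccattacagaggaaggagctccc

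The Bgn window held 3 matches to the Sp1 motif, of which 2 overlap, and no TATAAA. Col4a6 held 1 match each to the TEAD, RBPJ and Sp1 motifs, Tnc held 2 to RBPJ and 1 each to TATAAA and Sp1, and Apol8 held none of the 5. The RBPJ motif was in 8 of the 11 lower genes matched (72.7%), in 14 of the 81 higher ones (17.3%) and in 22.8% of the 9341 windows of tested genes. The AP-1 motif was in 7.41% of the higher genes' windows, 9.09% of the lower and 4.62% of all tested, TEAD in 14.8%, 27.3% and 11.7%, TATAAA in 9.88%, 27.3% and 6.50%, and Sp1 in 50.6%, 45.5% and 66.8%. Over all 27025 windows of the table the shares were 7.93% for AP-1, 14.6% for TEAD, 25.5% for RBPJ, 14.2% for TATAAA and 35.9% for Sp1. Median GC was 53.7% in the lower genes' windows, 60.3% in the higher genes' and 61.3% in those of all tested genes. The lower genes include chymase genes similar in sequence, so the 11 windows may not be independent. A match is a string of letters and not a site, and a link of the RBPJ share to Notch was not tested.

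Among matrix genes the Lingo3 line had more biglycan, elastin and Col1a1 and less tenascin C. Biglycan, Bgn (chromosome X, 73483602 to 73495933, GRCm38), is a small proteoglycan that binds collagen fibrils. It stood at 97.5 CPM in the Lingo3 line, against 14.8, 12.3 and 5.22 CPM in the Lingo1, Lingo2 and TROY lines, 9.17-fold (8.51 to 9.88). Elastin, Eln (chromosome 5, 134702593 to 134747323), was at 3.97 CPM, against 0.572, 0.554 and 0.492 CPM, 7.37-fold (5.22 to 10.5), and the other 3 lines lay close together. Osteopontin, Spp1, was 3.47-fold higher. Of 23 measured matrix glycoproteins and proteoglycans, these 3 were higher and Tnc was lower, and the list's median log2 ratio was -0.08, where that of all tested genes was -0.0017. Fibronectin, Fn1, at 286 CPM against 168, 167 and 188 CPM, and fibromodulin, Fmod, at 103 CPM against 243, 200 and 178 CPM, passed edgeR's test (adjusted p = 0.00132 and 0.00127) but not the size rule.

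Col1a1 (chromosome 11, 94936224 to 94953042), the main chain of fibrillar type I collagen, stood at 394 CPM in the Lingo3 line, against 169, 133 and 144 CPM in the Lingo1, Lingo2 and TROY lines, 2.66-fold (2.59 to 2.72). Col5a1, a chain that regulates fibril width, was 3.33-fold higher. They were the 2 higher members of 11 measured interstitial collagens, none was lower, and the median log2 ratio was -0.15. Col1a2, the partner chain of Col1a1, had 3 counts in the Lingo3 line, against 3, 2 and 0. Col3a1 had 62 counts, against 1, 3 and 3, but averaged under 1 CPM and was not tested. None of the 12 measured genes of collagen processing passed the rule.

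Of 17 measured basement membrane genes Col4a6 alone passed, and it was lower. Col4a6 (chromosome X, 141165403 to 141474076) stood at 17.3 CPM in the Lingo3 line, against 98.8, 75.9 and 116 CPM in the Lingo1, Lingo2 and TROY lines. It was 5.62-fold lower (5.15 to 6.15). Col4a5, its head-to-head neighbour and a chain of the same collagen family, was at 681 CPM, against 1285, 1003 and 1389 CPM. That is a 1.80-fold lower level, which passed edgeR's test (adjusted p = 0.00709) but not the size rule. Tenascin C, Tnc (chromosome 4, 63959785 to 64047015), a glycoprotein of wounds and developing tissue, was at 6.24 CPM, against 40.8, 37.5 and 27.4 CPM, 5.61-fold lower (4.85 to 6.53). The Lingo3 library lay more than 4-fold below the lowest of the other 3 lines for both genes.

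Of 18 measured matrix proteases and inhibitors, 2 were higher and 2 lower. Mmp2, a gelatinase, was 2.92-fold higher (2.47 to 3.46), and Adam19, a membrane metalloprotease, 7.02-fold (4.82 to 10.4). The collagenase Mmp13 had 286 counts in the Lingo3 line, against 637, 754 and 669 in the Lingo1, Lingo2 and TROY lines, 2.54-fold lower (2.24 to 2.88), and the proprotein convertase Pcsk5 was 3.29-fold lower (2.86 to 3.80). Of 12 measured integrins Itga9, a receptor subunit for tenascin C and other ligands, was the 1 past the rule, at 14.6 CPM against 3.79, 3.29 and 1.64 CPM, 5.09-fold.

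Growth factor receptors of the PDGF family were higher. Pdgfrb stood at 11.3 CPM in the Lingo3 line, against 1.86, 1.28 and 0.427 CPM in the Lingo1, Lingo2 and TROY lines, 9.68-fold (7.74 to 12.2), and Pdgfra at 6.63 CPM, against 2.47, 2.98 and 2.59 CPM, 2.47-fold. Flt1, a receptor for VEGF, was 2.19-fold higher (2.02 to 2.37). These were 3 of 17 measured PDGF, VEGF and FGF genes, with a list median of -0.11 (log2 ratio) and no lower member. In the TGF-beta and BMP list 2 of 29 were higher: Ltbp2, which resembles the proteins that hold latent TGF-beta in matrix, at 10.6 CPM against 1.68, 1.18 and 0.197 CPM, and the ligand Bmp2, 2.34-fold.

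Notch1 and Notch3, receptors cleaved upon contact with ligands on neighbouring cells, were the 2 higher genes of 16 measured in the Notch pathway. Notch1 (chromosome 2, 26457903 to 26516663) stood at 9.13 CPM in the Lingo3 line, against 1.68, 1.56 and 1.15 CPM in the Lingo1, Lingo2 and TROY lines, 6.28-fold (5.07 to 7.81), and Notch3 at 4.13 CPM, against 0.787, 1.07 and 0.820 CPM, 4.62-fold (3.46 to 6.21). The ligand Jag1 (29.8 CPM, against 24.3, 22.4 and 25.3 CPM), the receptor Notch2 (152 CPM, against 146, 137 and 154 CPM) and the target Hes1 (70.9 CPM, against 77.3, 78.4 and 70.4 CPM) did not pass. The target Hey1 had 29 counts, against 9, 9 and 9, and was under the level tested.

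Of 29 measured Wnt pathway genes 4 were higher and 0 lower, and the list median was 0.21 (log2 ratio). Beside Sfrp1 these were the R-spondin receptor Lgr5 at 3.62-fold (2.86 to 4.58), the feedback gene Axin2 at 4.40-fold (3.13 to 6.24) and the ligand Wnt10a at 2.57-fold (2.16 to 3.05). Axin2 stood at 2.93 CPM in the Lingo3 line, against 0.751, 0.485 and 0.755 CPM in the Lingo1, Lingo2 and TROY lines. Lgr4, at 19.2 CPM against 8.69, 9.91 and 7.35 CPM, passed against Lingo1 and TROY but not Lingo2. Antagonist, receptor, ligand and target were thus all among the 4.

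Of 15 measured ERK feedback genes the phosphatase Dusp4 was the 1 past the rule, at 33.3 CPM in the Lingo3 line, against 13.3, 10.9 and 16.4 CPM, 2.46-fold (2.26 to 2.67). Its relative Dusp6 was at 87.8 CPM, against 131, 122 and 124 CPM (edgeR adjusted p = 0.0159, below the other 3). None of 24 immediate early genes passed either test: Fos was at 216 CPM, against 206, 192 and 185 CPM, and Egr1 at 423 CPM, against 424, 364 and 366 CPM. Of the 24 immediate early genes 21 had ratios above 1, with a median log2 ratio of 0.15. Of 12 measured EGF ligands and ERBB receptors and of 18 YAP and TAZ targets, none passed the size rule. S phase genes (24), mitotic genes (24) and p53 targets (21) had none past either test, with medians of -0.02, -0.0024 and -0.02. The imprinted cell cycle inhibitor Cdkn1c, in none of these 3 lists, was 5.16-fold higher (4.30 to 6.20).

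Epithelial and lung lineage genes gave few higher members. Trp63 (chromosome 16, 25683763 to 25892102), the transcription factor of basal cells, stood at 13.4 CPM in the Lingo3 line, against 3.97, 3.39 and 2.79 CPM in the Lingo1, Lingo2 and TROY lines, 3.97-fold (3.41 to 4.62). Of 6 measured basal cell markers it was the 1 past the rule, while all 6 had ratios above 1, with a median log2 ratio of 0.52. Krt14 was at 201 CPM, against 173, 175 and 126 CPM, and Krt5 had 0 counts in all 4 lines. Of 20 measured lung transcription factors Elf3, an epithelial ETS factor, was also higher, at 2.79-fold, while Gata5, at 11.7 CPM against 5.58, 6.79 and 4.99 CPM, passed against Lingo1 and TROY but not Lingo2.

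Of 10 measured alveolar type II cell markers the aspartic protease Napsa, which processes surfactant protein, was higher, at 7.90 CPM against 3.08, 3.53 and 2.10 CPM. The surfactant gene Sftpc stood at 81.2 CPM in the Lingo3 line, against 40.3, 41.1 and 19.6 CPM, a level above the other 3 by edgeR (adjusted p = 0.00765) that did not pass the size rule against Lingo2. Sftpb was at 163 CPM, against 162, 141 and 85.9 CPM. Of 21 tight junction and desmosome genes the claudin Cldn3 was higher, and none of 6 keratins or 16 mesenchymal transition genes passed the size rule.

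Markers of other cell types moved in part. Of 14 fibroblast markers 5 were measured and 3, Col1a1, Pdgfra and Pdgfrb, were higher, while decorin, Dcn, was at 2970.2 CPM in the Lingo3 line, against 3182, 3251 and 2562 CPM, and Lum had at most 1 count in any library. The summed level of the 14 was 3396 CPM in the Lingo3 line, against 3365, 3400 and 2715 CPM. The smooth muscle markers Acta2 and Des had 6 counts each in the Lingo3 line and at most 4 in any other, and 2 of the 4 measured members of that list (Notch3 and Pdgfrb) were higher. Of 12 endothelial markers 1 was measured and did not pass. Among immune markers Tyrobp and Cpa3 had 0 counts in all 4 lines and Ptprc at most 3. Of the 15 immune markers 4 were measured and 2, both chymases, were lower. The summed level of the 15 was 66.2 CPM in the Lingo3 line, against 193, 180 and 114 CPM. Most of that sum was the chymase Mcpt1, at 58.9 CPM, against 168, 155 and 98.6 CPM. In all 4 lines 5 of the 15 were at 0. The part of other cell types in these results was not tested beyond these values.

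Alkaline phosphatase, Alpl (chromosome 4, 137741733 to 137796384), an enzyme of matrix mineralization, stood at 11.9 CPM in the Lingo3 line, against 1.11, 1.70 and 0.689 CPM in the Lingo1, Lingo2 and TROY lines, 10.3-fold. Of 9 measured mineralization genes Phospho1, a phosphatase of matrix vesicles, at 2.77-fold and Spp1 were also higher, and none was lower. Stra6, the retinol transporter, had 136 counts, against 19, 27 and 4, 7.72-fold, and was the 1 past the rule of 13 retinoid genes. Complement C3 at 2.91-fold and the complement regulator Serping1 at 2.91-fold were higher, of 15 measured complement and acute phase genes.

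Metabolic lists had many small shifts and no gene past the size rule. Such shifts were not particular to these lists. Of 14 measured antigen presentation genes 13 had ratios above 1 (median log2 ratio 0.35), and none passed the size rule. All 21 measured fatty acid synthesis genes had ratios above 1, with a median log2 ratio of 0.32, and 3 of them (Acss2, Acsl3 and Dgat2) passed edgeR's test above the other lines. Acss2, an acetyl-CoA synthetase, stood at 40.2 CPM in the Lingo3 line, against 21.1, 21.4 and 16.6 CPM. Of 23 cholesterol synthesis genes 20 had ratios above 1 (median 0.23). Of 29 glycolysis and hypoxia genes 23 had ratios above 1 (median 0.18) and 6 passed edgeR's test above the others, among them Hk1 and Eno1, and of 21 NRF2 targets 20 had ratios above 1 (median 0.21), with 3 past edgeR's test. Over all tested genes 3.42% passed edgeR's test above the other lines.

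Of the 6 measured genes of the LINGO and Nogo receptor list, Rtn4rl2, a homologue of the Nogo receptor, was higher. It stood at 4.75 CPM in the Lingo3 line, against 1.75, 2.11 and 1.38 CPM in the Lingo1, Lingo2 and TROY lines, 2.73-fold (2.16 to 3.44). The Nogo receptor gene Rtn4r had at most 6 counts in any line, Nogo itself (Rtn4) was at 206 CPM, against 206, 197 and 220 CPM, and Ngfr passed against TROY alone. Of 41 measured axon guidance genes Sema6d, a semaphorin, was lower, at 13.4 CPM against 32.9, 27.5 and 33.2 CPM, and Sema3a was at 104 CPM, against 224, 190 and 236 CPM, past the rule against Lingo1 and TROY but not Lingo2. The adhesion gene Opcml was 3.07-fold lower (2.53 to 3.77).

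**Figure D3:**
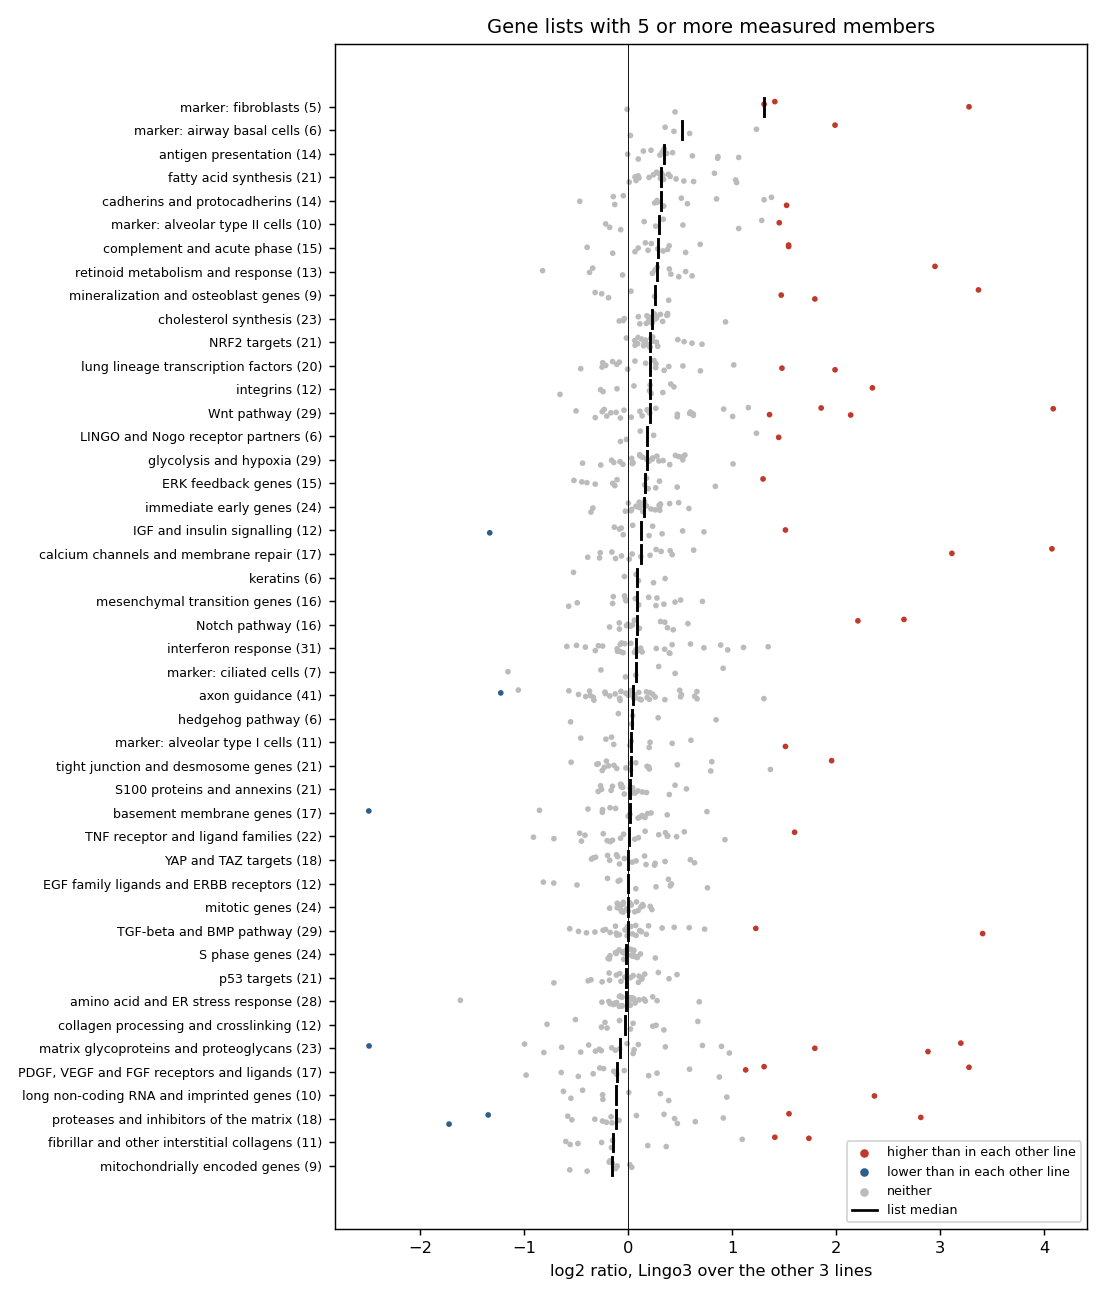
Log2 ratio of Lingo3 to the other 3 lines for the measured members of each gene list with 5 or more of them, with the number measured in brackets, coloured by the size rule, and the list median as a black bar. Medians lie near 0 in most lists, with single members far to the right, such as Bgn, Sfrp1 and Cacng4.

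The higher genes with the most reads were Col1a1, Syt7, Spock2 and Zfp703, named here after their values were seen. Synaptotagmin 7, Syt7, a calcium sensor of exocytosis, stood at 245 CPM in the Lingo3 line, against 76.3, 96.5 and 55.0 CPM in the Lingo1, Lingo2 and TROY lines, 3.25-fold (3.14 to 3.36). The matrix proteoglycan Spock2 was at 166 CPM, against 62.5, 56.5 and 57.7 CPM, and the transcriptional regulator Zfp703 at 122 CPM, against 52.1, 51.0 and 55.0 CPM. In Spock2 and Zfp703 the other 3 lines lay within 1.11-fold of each other. With counts this large, the interval is narrow and the limit on these values is the missing replicate, not the depth.

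Lower genes included 3 of the chymase and granzyme locus on chromosome 14, serine proteases known from mast cells. Mcpt2 had 103 counts in the Lingo3 line, against 571, 575 and 365 in the Lingo1, Lingo2 and TROY lines, 5.17-fold lower (4.23 to 6.37), and Cma1 at 1.69 CPM, against 6.58, 6.41 and 5.51 CPM, 3.64-fold lower. Mcpt4 had 7 counts, against 52, 45 and 34, 6.59-fold lower (3.11 to 16.7). Mcpt1 was at 58.9 CPM, against 168, 155 and 98.6 CPM, past the rule against Lingo1 and Lingo2 but not TROY. These genes are similar in sequence, so reads may be split between them in ways that the counting does not show. Igfbp5, a binding protein of insulin-like growth factors, was 2.51-fold lower (2.23 to 2.84), while its relative Igfbp2 was 2.85-fold higher.

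The ribosomal RNA genes n-R5-8s1 and CT010467.1, the second named outside the rule, were also lower. CT010467.1 stood at 385 CPM in the Lingo3 line, against 799, 3097 and 1961 CPM in the Lingo1, Lingo2 and TROY lines, so that the other 3 lines differed by 3.88-fold among themselves. The share of uniquely aligned reads in no feature was 4.98% in the Lingo3 line, against 5.44%, 6.41% and 6.20%, in the same order of lines as CT010467.1. The part of library preparation in these 2 genes was not tested.

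Among the other 3 lines, the TROY library was the lowest for 84 of the 126 genes higher in Lingo3 (66.7%, against 36.9% of all tested genes), a description of lines that the rule did not compare with each other. Bgn, Dysf, Ltbp2 and Pdgfrb share that order, with Lingo3 above Lingo1, then Lingo2, then TROY. The median fold of the 126 was 3.12 against Lingo1, 2.98 against Lingo2 and 3.86 against TROY. For the 18 lower genes TROY was the highest of the 3 in 6. A further 50 genes were higher against exactly 2 of the 3 lines and 156 against 1, of which 122 were against TROY. In the lower direction these numbers were 16 and 48.

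By position, 2 chromosomes were shifted as a whole. On chromosome 4, 79.2% of the 770 tested genes had a ratio above 1, with a median log2 ratio of 0.15 over the other 3 lines and of 0.17, 0.12 and 0.17 against Lingo1, Lingo2 and TROY taken singly. Running medians over 41 neighbouring genes were above 0 in all 730 windows of chromosome 4 and lay between 0.05 and 0.26. On chromosome 14, 25.2% of 404 genes had a ratio above 1, the median was -0.12, and none of 364 windows was above 0. The other autosomes and chromosome X had medians between -0.05 and 0.04. Between the other 3 lines the median of chromosome 4 lay between -0.05 and 0.06, and that of chromosome 14 between 0.02 and 0.04. The highest window of any chromosome was on chromosome 2 (155059310 to 157326319), with a median of 0.30. Copy number was not measured, and its part in these shifts was not tested.

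Of the 144 genes, 4 of the 18 lower ones and 4 of the 126 higher ones lie on chromosome 14, and 8 higher and 1 lower on chromosome 4. The 4 lower genes on chromosome 14 include the chymase genes Cma1, Mcpt2 and Mcpt4. Chromosome 5 had the most higher genes, 17 of 807 tested. The share of tested genes past the rule was 1.98% on chromosome 14, 1.17% on chromosome 4 and 2.23% on chromosome 5. It was 1.2% of all tested genes. Neighbouring tested genes that passed together included Eln, Mettl27 and Cldn3 on chromosome 5, Mmp2, Ces1d and Gnao1 on chromosome 8, and Plxdc2 and Nebl on chromosome 2, all higher, as well as Mcpt2 and Mcpt4 on chromosome 14, lower.

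**Figure D4:**
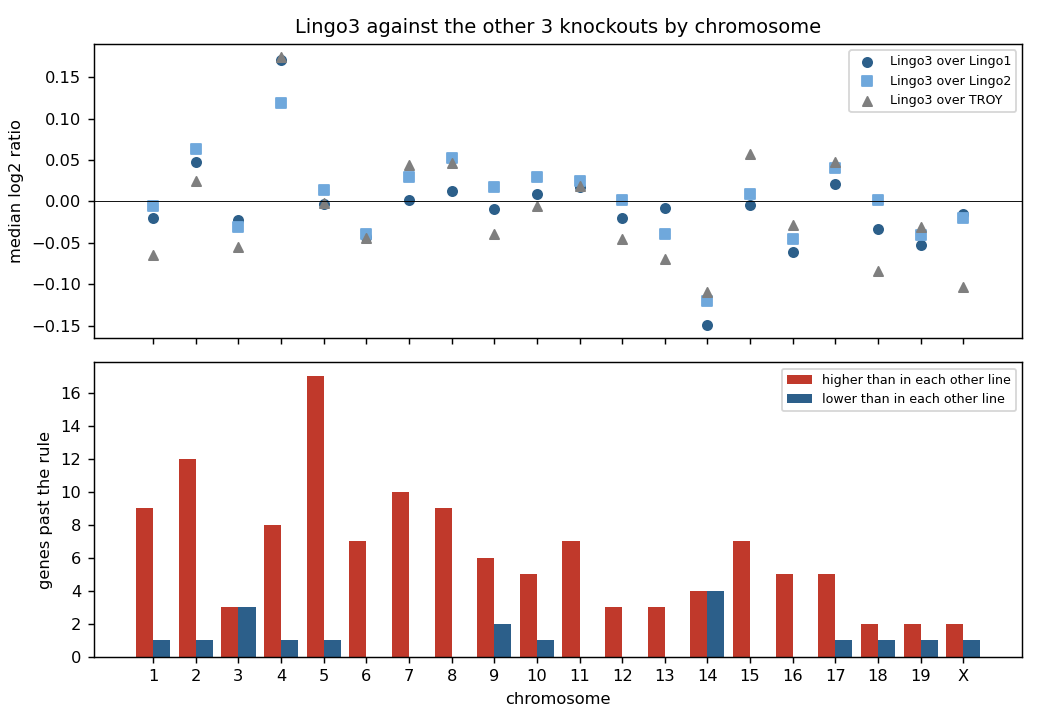
Top, median log2 ratio of the Lingo3 library over each of the other 3 libraries for the tested genes of each chromosome. Bottom, numbers of genes past the size rule against all 3. Chromosome 4 lies above and chromosome 14 below the other autosomes and X against each of the 3 lines, and chromosome 5 holds the most higher genes.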

How the data were processed

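Messenger RNA libraries of 4 knockout lines were analysed. Raw counts by Ensembl gene identifier, 1 column for each of 6 libraries, were deposited by the authors. The submitters' processing notes name Trimmomatic 0.39, STAR, HTSeq, edgeR and build GRCm38, without roles. Whether counting used strand is not given in the sources used here, so a gene and an overlapping partner cannot be told apart. Rows that name no gene stayed out of all totals (between 4.98% and 6.41% of uniquely aligned reads in no feature, 3.31% to 4.08% ambiguous, and 28.7% to 31.3% of all aligned reads not unique). A second deposited table was not used because its header gives no unit.

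Counts were scaled with TMM over the 4 libraries (edgeR 4.0.16, R 4.3.3), and the 12045 genes averaging at least 1 CPM were tested by the size rule and by edgeR's quasi-likelihood test, with 2 residual degrees of freedom. DESeq2 1.42.0 was an alternative. Symbols and positions came from GENCODE M21, matched for 45229 of 46078 identifiers. A fold against a count of 0 uses a floor of 3 counts. Scripts were tested on simulated data. Named genes were the targeted genes, the 15 with the largest bound nearest to 1 in each direction (without predicted genes and pseudogenes), and up to 4 past the rule per list, with further list members as values. The comparison and the 52 lists of genes were chosen with earlier results of these data known. Intervals cover counting error only.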

Additional observations from a re-analysis of the deposited data

How the results depend on the processing

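The counts of 126 higher and 18 lower genes stayed within 1.5-fold with DESeq2 size factors, total counts, TMM over all 6 libraries and protein-coding genes only. Without an expression filter 190 genes were higher and 22 lower, while a minimum mean of 5 CPM left 47 and 15. A fold of 3 with a bound beyond 2 gave 47 higher and 5 lower. A fold of 1.5 with a looser bound gave 269 and 68, and the rule against the 3 lines pooled gave 198 and 35. Leaving out Lingo1, Lingo2 or TROY in turn gave between 135 and 152 higher and between 21 and 26 lower, which can only add genes by construction. edgeR's counts of 412 and 135 were 212 and 50 at an adjusted p under 0.01, between 156 and 790 and between 27 and 444 with a line left out, and 314 and 142 with DESeq2. All 57 named genes past the rule kept the call with DESeq2 size factors and with total counts. Leaving out a line cannot end a call by construction, but it moved the ratio beyond its interval for 6 of the 57 without Lingo1, 7 without Lingo2 and 9 without TROY. The medians of 16 of the 52 lists changed sign in at least 1 alternative; the largest size of such a median was 0.25 when rounded. No paired analysis was possible because each group had 1 library and the labels give no replicate numbers. The Lingo3 library itself could not be left out, so no value here has a replicate check.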
